A study of Oryza sativa Japonica Group with 12 samples.

Results

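The arrays described here come from 2 lines of rice that carry the same overexpression construct, pC5300.OE-OsbHLH044, and they show how the stem bases of the lines differed from each other. The lines, named OsbHLH044_crl1OE_67.1.11.7 and OsbHLH044_crl1OE_67.5.9.12 in the labels and called OE 67.1 and OE 67.5 here, had 3 arrays each, so 6 of the 12 arrays of the study carry the comparison. The other 6 arrays came from the null segregant sister lines N_OsbHLH044_crl1OE_67.1.1.5 and N_OsbHLH044_crl1OE_67.5.13.4, called null 67.1 and null 67.5, which lack the T-DNA. All 4 lines carry the crl1 mutation in cultivar Taichung 65, a japonica rice, so the controls lack CRL1 function as well. RNA came from stem bases of plantlets grown for 6 days, and each array holds a pool of 8 to 12 stem bases from 1 of 3 independent repetitions of the experiment. Each genotype is represented by 1 line of descent; neither the insertion sites nor the promoter driving OsbHLH044 could be taken from the labels. Differences between OE 67.1 and OE 67.5 therefore cannot be told apart from differences that came with the insertion, the regeneration of the plants or the segregation of the lines. P-values measure the spread between the pooled repetitions.

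Crown roots are the shoot-borne roots that form most of the root system of a rice plant, and they start in the stem base. CRL1 (CROWN ROOTLESS1) is an auxin-responsive LOB-domain transcription factor that is needed to start them, and the crl1 mutant does not make them. OsbHLH044 belongs to the basic helix-loop-helix transcription factors, which bind DNA as dimers. No tested probe set carried the name of OsbHLH044 or CRL1 in the annotation used, so the level of the transgene in the lines is not reported here.

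The tissue markers were like those of a young shoot. All 4 shoot meristem markers, OSH1, OSH15, OSH71 and WOX4, lay above the array median on all 6 overexpressing arrays, and so did all 5 measured markers of green tissue. Of 8 root markers, 2 lay above the median on all 6 arrays (Lsi1 and SHR1) and 4 lay below it on all 6 (Lsi2, SCR1, QHB and TIP2;1). The seed markers AMY1A, AMY3D and GLUA-1 were at 2.10 to 2.91 on the log2 scale, at the low end of the arrays. A gene matched to the globulin marker by the name GLB1 alone lay above the median on all 6 arrays, and its identity is uncertain. Of the markers of dying tissue, SAG12, a senescence-associated protease, lay at 4.59 to 4.85, above the array medians, and PBZ1, a pathogenesis-related protein, at 2.73 to 3.40, below them. None of the 23 markers measured passed the test between OE 67.1 and OE 67.5. The mean level of the root markers was 3.95 to 4.18 over the OE 67.1 arrays and 3.93 to 4.08 over the OE 67.5 arrays, and that of the green markers was 7.34 to 7.54 and 7.41 to 7.56. In bulk stem bases, fewer cells of a type and less RNA per cell cannot be told apart.

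The medians of the 12 arrays lay between 4.34 and 4.39 on the log2 scale. The 75th percentile was 5.55 to 5.62 on the OE 67.1 arrays and 5.63 to 5.72 on the OE 67.5 arrays, and the SD over probe sets was 1.63 to 1.67 against 1.68 to 1.71. The ranges of the 2 overexpressing lines did not overlap. Within each of the 4 lines, both values also rose from repetition 1 to repetition 3. The 75th percentile rose from 5.55 to 5.62 in OE 67.1 and from 5.63 to 5.72 in OE 67.5. In the null lines it rose from 5.51 to 5.59 (67.1) and from 5.56 to 5.68 (67.5), ranges that overlapped. The upper part of the value distribution thus moved with the repetition number as well as with the line. The correlation between arrays, over probe sets, was 0.9856 to 0.9872 within OE 67.1, 0.9869 to 0.991 within OE 67.5 and 0.9674 to 0.9892 between them; the lowest values between lines came from repetition 3 of OE 67.5 (0.9674 to 0.9806). What part the value distribution had in the results was not tested. Quantile normalization, which makes the distributions equal, is given below where it ended the call of a named gene or of a difference of differences. Other calls that it ended are given by number alone.

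Between the lines, 201 of 24251 probe sets that the annotation pairs with a gene passed at an adjusted p of at most 0.05 (limma, fitted without the repetition number, Benjamini-Hochberg adjustment over all of them), which is 0.829%. Of these, 124 were higher in OE 67.5 (0.511% of those tested) and 77 were lower (0.318%). With the repetition number fitted as a block, 2048 passed (limma), all 201 among them, 1158 higher and 890 lower. The count thus depended on whether the repetition was fitted, and the labels do not say whether an equal number marks a shared repetition. After quantile normalization the split was 32 higher and 29 lower, without OE 67.5 repetition 1 it was 280 and 345, and without OE 67.1 repetition 3 it was 457 and 473, so no direction is given to the count. The differences were mostly small: the median size was 0.61 on the log2 scale, the smallest was 0.37, and 19 probe sets differed by at least 1, of which 10 were higher and 9 lower in OE 67.5. The 3 arrays of one line lay wholly above those of the other for all 201, while this held for 30.4% of all probe sets tested. An unadjusted p under 0.05 was found for 25.7% of those tested. The median difference over all probe sets was 0.02, with 53.9% above 0.

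The number of differing genes rested on single arrays. It was 20 without OE 67.5 repetition 3, 29 without OE 67.5 repetition 2, 26 without OE 67.1 repetition 1 and 35 without OE 67.1 repetition 2. It was 930 without OE 67.1 repetition 3 and 625 without OE 67.5 repetition 1. Null arrays, which enter through the shared estimate of the spread, moved it too, to 51 without null 67.1 repetition 2, 67 without null 67.1 repetition 1, 107 without null 67.5 repetition 2 and 670 without null 67.5 repetition 1. The remaining pair gave 146 without null 67.1 repetition 3 and 252 without null 67.5 repetition 3. The genes described first below are the 15 that passed in each of these 12 fits, and also with the 6 overexpressing arrays fitted alone (29 calls in all), after quantile normalization (61 calls) and with every probe set tested (61 calls). They were singled out after their values were seen.

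**Figure D1:**
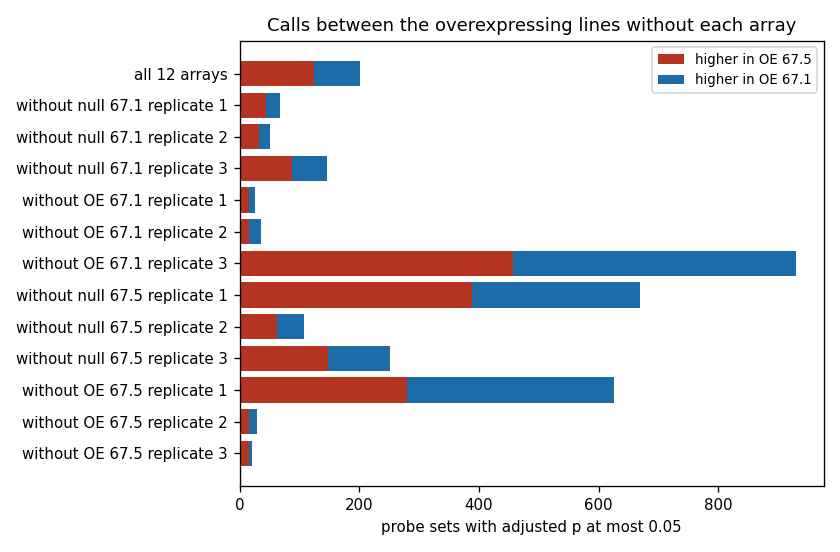
Number of probe sets with an adjusted p of at most 0.05 between OE 67.5 and OE 67.1 (horizontal axis) with all 12 arrays and without each array in turn; red bars count probe sets higher in OE 67.5 and blue bars those higher in OE 67.1. The total was 201 with all arrays and between 20 and 930 without 1 of them.

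Of the 15 genes, 10 were higher and 5 were lower in OE 67.5, and none has a name beyond its locus number in the gene table; 13 are annotated as protein-coding, and LOC9267697 and LOC9271653 as long non-coding RNA genes. No role is given for them here. The largest difference of all belonged to LOC4342250. It stood at 2.80, 2.95 and 2.73 on the log2 scale in OE 67.1 and at 9.18, 8.97 and 9.18 in OE 67.5. The gene thus went from a level near the bottom of the arrays in one line to one near the top in the other, a difference of 6.28 ± 0.105 (SE; adjusted p = 3.1e-14, limma). No fold is given, because the level in OE 67.1 was not checked against background.

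The null sister lines differed in LOC4342250 by as much. Null 67.1 stood at 3.15, 2.93 and 2.94 and null 67.5 at 9.08, 9.36 and 9.22, a difference of 6.21 (adjusted p = 3.67e-14, limma). Its level therefore followed the couple, 67.1 or 67.5, and not the presence of the T-DNA. The difference of the differences was 0.07 ± 0.15 (SE; adjusted p = 0.996, limma).

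Among the other 14 genes, 3 showed the same pattern, passing in the same direction between the null lines. LOC9268613 was at 4.57, 4.41 and 4.63 in OE 67.1 and at 5.78, 5.79 and 5.49 in OE 67.5, a difference of 1.15 (adjusted p = 3.27e-04, limma), and null 67.5 exceeded null 67.1 by 1.04 (adjusted p = 0.00289, limma). For LOC9271653 the differences were 1.26 and 1.09 (adjusted p = 0.00367 and 0.0122, limma), and for LOC4324297 they were 0.66 and 0.73 (adjusted p = 0.00629 and 0.00632, limma). In each of these genes both 67.5 lines lay above both 67.1 lines on every array.

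Over the whole of the 201, 13 also passed between the null lines in the same direction, 12 of them higher in the 67.5 lines and 1 lower. These are 6.47% of the 201 and 23.2% of the 56 probe sets that passed between the null lines (0.231% of those tested). They were picked out after their values were seen. The group holds, besides the genes above, LOC4350553 (0.75 between the overexpressing and 0.95 between the null lines), LOC4339039 (0.79 and 1.17), LOC4339708 (0.82 and 1.11), LOC4330226 (0.70 and 1.04), LOC4329433 (0.54 and 0.79), LOC4335638 (0.58 and 0.56), LOC4337461 (0.47 and 0.58) and LOC4342588 (0.40 and 0.55). LOC9271453 was the gene lower in both, at −1.13 between the overexpressing and −1.08 between the null lines. None of these 9 genes has a name, and each lost its call between the overexpressing lines without OE 67.5 repetition 3, among other arrays.

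Of all 201 probe sets, 173 (86.1%) had the same sign of difference between the null lines, against 74.0% of all probe sets tested. Across all 24251 probe sets the correlation of the 2 differences was 0.61; they come from different arrays, hybridised to the same probes, and probe sets are not independent replicates.

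**Figure D2:**
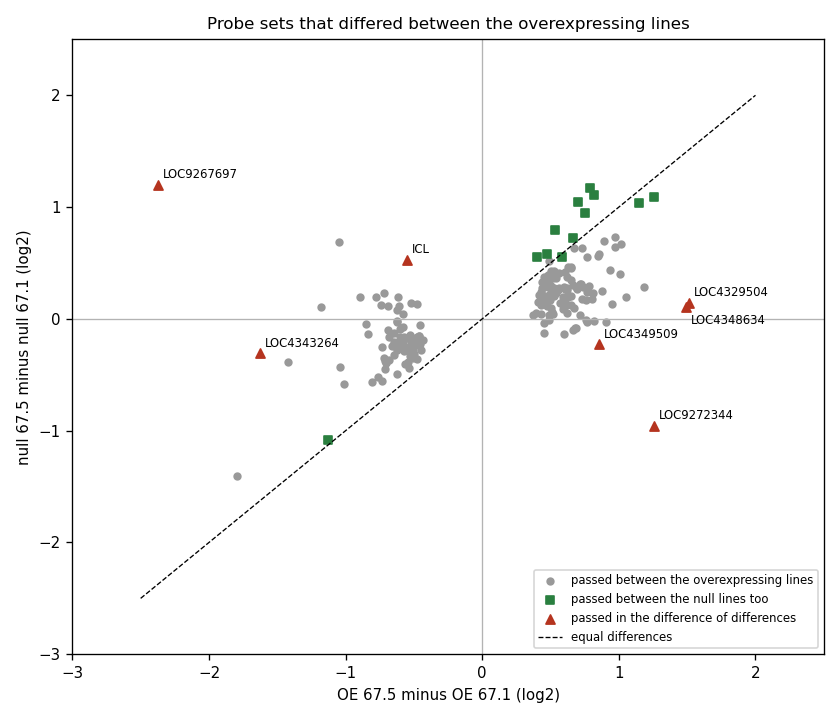
Difference between the overexpressing lines (OE 67.5 minus OE 67.1, horizontal axis, log2) against the difference between the null lines (null 67.5 minus null 67.1, vertical axis, log2) for the 200 probe sets that passed between the overexpressing lines other than LOC4342250, which lies at 6.28 and 6.21. Green squares passed between the null lines too, red triangles passed in the difference of differences, and the dashed line marks equal differences; LOC9272344, a triangle, passed between the null lines in the opposite direction.

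The test of the difference itself, OE 67.5 minus OE 67.1 less null 67.5 minus null 67.1, was passed by 8 genes (0.033% of those tested; limma), 5 with a positive and 3 with a negative value. Of these, 7 also passed between the overexpressing lines. LOC9267697, the long non-coding RNA gene, gave the largest value. It was at 7.02, 6.21 and 6.10 in OE 67.1 and at 4.35, 3.68 and 4.18 in OE 67.5, and so lower in OE 67.5 by a difference of −2.37 ± 0.28 (SE; adjusted p = 0.00159, limma).

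Between the null lines this gene pointed the other way. It was at 4.50, 4.37 and 4.65 in null 67.1 and at 5.16, 5.56 and 6.40 in null 67.5, a difference of 1.20 that did not pass (adjusted p = 0.0857, limma). By the line means, OE 67.1 was the highest and OE 67.5 the lowest of the 4 lines, and the difference of differences was −3.57 (adjusted p = 0.00223, limma).

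LOC9272344 crossed in the opposite sense and passed in both comparisons. It was at 4.08, 4.63 and 4.31 in OE 67.1 and at 5.51, 5.54 and 5.75 in OE 67.5, a difference of 1.26 ± 0.15 (SE; adjusted p = 0.00137, limma). Its null lines were at 4.85, 5.09 and 5.09 for 67.1 and at 4.18, 4.20 and 3.78 for 67.5, a difference of −0.96 (adjusted p = 0.0137, limma). OE 67.5 was thus above its sister line and OE 67.1 below its own, and the difference of differences was 2.21 (adjusted p = 7e-04, limma).

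LOC4329504 and LOC4348634 were highest in OE 67.5. LOC4329504 was at 6.78, 6.82 and 6.85 there and at 5.30, 5.17 and 5.45 in OE 67.1, a difference of 1.51 ± 0.10 (SE; adjusted p = 5.08e-06, limma), while the null lines lay between 5.23 and 5.57. LOC4348634 was at 6.14, 6.81 and 6.45 in OE 67.5 and at 4.77, 4.97 and 5.19 in OE 67.1, a difference of 1.49 ± 0.15 (SE; adjusted p = 3.27e-04, limma), with the null lines between 5.31 and 5.59. In both genes OE 67.5 was above the other 3 lines on every array; in LOC4348634, OE 67.1 was also below all 6 null arrays. The differences of differences were 1.37 and 1.39 (adjusted p = 0.00174 and 0.0395, limma).

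LOC4343264 stood out in OE 67.1. It was at 5.90, 6.38 and 6.48 there and at 4.48, 4.72 and 4.67 in OE 67.5, a difference of −1.63 ± 0.14 (SE; adjusted p = 1.11e-04, limma). The null lines lay between 4.59 and 5.10, and so did 2 of the 3 OE 67.5 arrays, while every OE 67.1 array was higher. The difference of differences was −1.32 (adjusted p = 0.0398, limma).

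ICL, isocitrate lyase of the glyoxylate cycle, was the named gene among the 8. It was at 5.37, 5.36 and 5.29 in OE 67.1 and at 5.01, 4.73 and 4.63 in OE 67.5, a difference of −0.55 ± 0.11 (SE; adjusted p = 0.0386, limma). Null 67.1 was at 6.20, 6.21 and 6.14 and null 67.5 at 6.88, 6.69 and 6.58, a difference of 0.53 (adjusted p = 0.0558, limma). Both overexpressing lines were below both null lines, and the couple with the higher null level had the lower overexpressing level; the difference of differences was −1.08 (adjusted p = 0.02, limma). The gap between an overexpressing line and its sister was therefore wider in couple 67.5.

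The last pair, LOC4349509 and LOC9272503, had smaller differences. LOC4349509 was 0.86 higher in OE 67.5 (adjusted p = 0.00194, limma) with a difference of differences of 1.08 (adjusted p = 0.0182, limma). LOC9272503 was at 4.66, 4.61 and 4.84 in OE 67.1 and at 5.15, 5.30 and 5.20 in OE 67.5, a difference of 0.52 that did not pass (adjusted p = 0.0762, limma), and null 67.5 was 0.82 below null 67.1 (adjusted p = 0.0418, limma). Its difference of differences was 1.33 (adjusted p = 0.0437, limma).

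Of the 8 genes, LOC4329504, LOC9272344 and LOC9267697 passed in the difference of differences without each of the 12 arrays. LOC4349509 kept its call in 5 of the 12 fits, ICL in 4, LOC4348634 in 2, LOC4343264 in 1 and LOC9272503 in 1. The highest adjusted p in these fits (limma) was 0.0661 for LOC4349509, without OE 67.5 repetition 2, 0.0756 for ICL, without the same array, and 0.158 for LOC9272503, without OE 67.1 repetition 1. It was 0.116 for LOC4348634, without OE 67.1 repetition 1, and 0.125 for LOC4343264, without OE 67.5 repetition 1. After quantile normalization ICL, LOC4348634 and LOC9272503 lost their call (adjusted p = 0.103, 0.0529 and 0.0708, limma), and the other 5 passed.

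**Figure D3:**
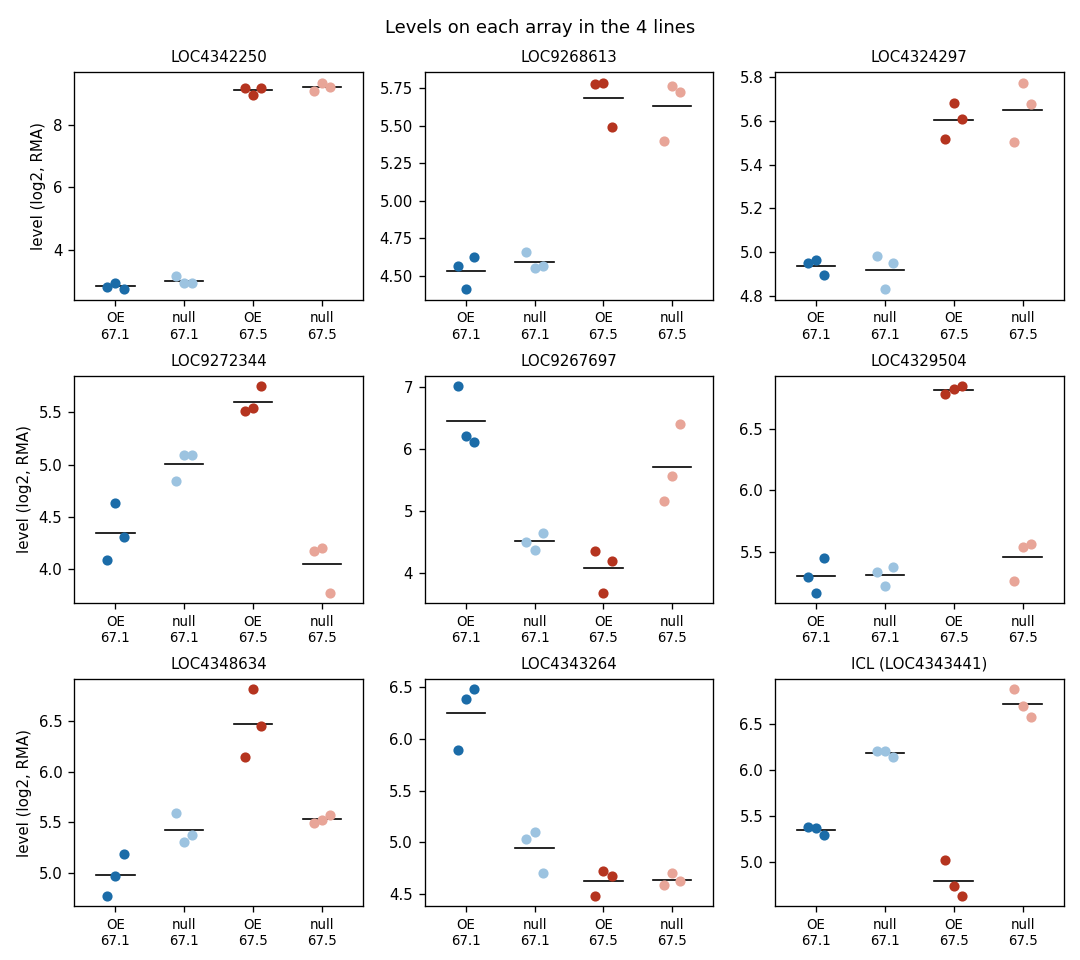
Level on each array (points, log2 scale after RMA, with an axis of its own range for each gene) and line mean (bar) in OE 67.1, null 67.1, OE 67.5 and null 67.5. LOC4342250, LOC9268613 and LOC4324297 followed the couple, LOC9272344, LOC9267697 and ICL had opposite signs of difference in the overexpressing and null lines, LOC4329504 and LOC4343264 stood apart in 1 overexpressing line, and for LOC4348634 the overexpressing lines lay on either side of the null arrays.

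The other genes that passed without each array were LOC4327205, LOC4338229, LOC9272112, LOC4330790 and LOC4333427. LOC4327205 was at 7.19, 7.32 and 7.77 in OE 67.1 and at 5.98, 5.94 and 6.09 in OE 67.5, a difference of −1.42 ± 0.15 (SE; adjusted p = 4.5e-04, limma). LOC4338229 was at 3.90, 3.66 and 4.06 in OE 67.1 and at 4.98, 4.89 and 5.31 in OE 67.5, a difference of 1.18 (adjusted p = 0.00127, limma). For both genes the null lines differed in the same direction by less, by −0.38 and 0.28, and neither null difference passed. LOC9272112 was 0.70 higher in OE 67.5, and LOC4330790 and LOC4333427 were lower, with differences of −0.85 and −0.78 (adjusted p = 0.00367, 0.00629 and 0.00894, limma).

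Large differences were also found for 2 unnamed genes that did not pass in every fit. LOC9270180 was at 5.50, 4.46 and 5.98 in OE 67.1 and at 3.55, 3.52 and 3.50 in OE 67.5, a difference of −1.79 ± 0.28 (SE; adjusted p = 0.0151, limma), and between the null lines it was −1.40 (adjusted p = 0.0546, limma). The arrays of OE 67.1 were far more spread than those of OE 67.5, and the call was lost in 3 of the 12 fits that left out an array. LOC4347973 was at 6.60, 5.33 and 6.05 in OE 67.1 and at 4.97, 4.91 and 4.56 in OE 67.5, a difference of −1.18 (adjusted p = 0.041, limma), and lost its call in 6 of the 12.

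Of the 201 probe sets, 19 (9.45%) have a gene name beyond a locus number, against 11.3% of all those tested; 14 were higher and 5 were lower in OE 67.5. All 19 lost their call without OE 67.5 repetition 3, with adjusted p values (limma) that started at 0.0656 for YSL2 and cbp3. Without OE 67.5 repetition 2, 17 of the 19 lost it, and 16 did without OE 67.1 repetition 1 and without OE 67.1 repetition 2. For the remaining arrays the number lost was 12 without null 67.1 repetition 1, 11 without null 67.1 repetition 2, 10 without null 67.5 repetition 2, 6 without null 67.1 repetition 3 and at most 2 for any other. YSL2, HCT4 and NAS3 also passed after quantile normalization and with every probe set tested, and the other 16 did not. NAS3 passed with the overexpressing arrays fitted alone (adjusted p = 0.0446, limma), and the other 18 did not. The null lines differed in the same direction by −0.45 for GRXC13, −0.38 for HCT4 and 0.44 for PRX74. For SIP2;1, AP25 and NFYB2 they did so by 0.42, 0.40 and 0.36. Smaller null differences of the same sign belonged to PHOT1A (0.29), PIN5B (−0.14), cbp3 (0.13), Hox16 (0.11) and HXK4 (LOC4342654, 0.09). For NOL, AMY1.5 and PPT1 the sign was opposite (−0.10, −0.04 and −0.02). None of these null differences passed (limma).

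Of 36 genes of iron homeostasis, 2 passed, 1 in each direction, against 0.829% of all probe sets. NAS3 encodes a nicotianamine synthase, which makes the chelator that carries iron and zinc within the plant. It was at 5.15, 5.41 and 5.75 in OE 67.1 and at 6.38, 6.51 and 6.46 in OE 67.5, a difference of 1.01 ± 0.16 (SE; adjusted p = 0.0151, limma). YSL2, a transporter of metal-nicotianamine complexes, was at 4.19, 4.33 and 4.02 in OE 67.1 and at 3.46, 3.62 and 3.40 in OE 67.5, a difference of −0.69 ± 0.10 (SE; adjusted p = 0.0104, limma). Of the 36 genes, 13 lay above 0 and the median was −0.09; between the null lines NAS3 differed by 0.67 and YSL2 by 0.12, and neither passed.

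NAS1, another nicotianamine synthase gene, was at 4.39, 4.33 and 5.40 in OE 67.1 and at 3.19, 3.09 and 3.49 in OE 67.5. The arrays of the lines did not overlap, which held for 30.4% of all probe sets tested. The difference of −1.45 ± 0.61 (SE) did not pass (adjusted p = 0.161, limma). The null lines of this gene overlapped and ranged from 3.81 to 7.73. Of the iron transporter genes, IRT2 had a difference of −0.50 and Nramp1 of −0.49 (adjusted p = 0.0566 and 0.0629, limma), and NAAT1, nicotianamine aminotransferase of phytosiderophore synthesis, had one of −0.59 (adjusted p = 0.0843, limma).

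In the phenylpropanoid and lignin group, HCT4, a hydroxycinnamoyl transferase, was at 5.80, 5.44 and 5.41 in OE 67.1 and at 4.85, 4.92 and 4.74 in OE 67.5, a difference of −0.71 ± 0.11 (SE; adjusted p = 0.0151, limma). It was the 1 member of 42 that passed, against 0.829% of all probe sets. Of the 42, 11 lay above 0 and the median was −0.13, which was −0.11 after quantile normalization. 4CL5, a 4-coumarate:CoA ligase, had a difference of −0.70 and CAD8D, a cinnamyl alcohol dehydrogenase, of −0.51 (adjusted p = 0.0566 and 0.0852, limma). PRX74, a class III peroxidase, was higher in OE 67.5. It was at 5.04, 5.62 and 5.88 in OE 67.1 and at 6.32, 6.41 and 6.61 in OE 67.5, a difference of 0.93 ± 0.16 (SE; adjusted p = 0.0248, limma). Repetition 1 of OE 67.1 was the lowest array.

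GRXC13, a glutaredoxin, was at 6.45, 6.04 and 5.85 in OE 67.1 and at 5.52, 5.29 and 5.38 in OE 67.5, a difference of −0.72 ± 0.14 (SE; adjusted p = 0.044, limma). It was the 1 member of 71 antioxidant and glutathione transferase genes that passed, against 0.829% of all probe sets.

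PIN5B, an auxin carrier of the PIN family, was at 4.20, 4.31 and 4.26 in OE 67.1 and at 3.71, 3.77 and 3.69 in OE 67.5, a difference of −0.53 ± 0.11 (SE; adjusted p = 0.0468, limma). It was the 1 member of 65 auxin genes that passed, against 0.829% of all probe sets. IAA6, an Aux/IAA repressor, had a difference of 0.54 (adjusted p = 0.0604, limma), and the median of the list was 0.07, changing to −0.02 after quantile normalization.

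Hox16, an HD-Zip transcription factor, was at 7.61, 7.67 and 7.61 in OE 67.1 and at 8.07, 8.10 and 8.13 in OE 67.5, a difference of 0.47 ± 0.09 (SE; adjusted p = 0.0327, limma). It was the 1 member that passed among 46 homeobox and shoot meristem genes, against 0.829% of all probe sets. The values of Hox16 lay close together in both lines. PHOT1A, a phototropin blue-light receptor, was at 6.03, 5.59 and 6.03 in OE 67.1 and at 6.39, 6.45 and 6.61 in OE 67.5, a difference of 0.60 (adjusted p = 0.047, limma). NFYB2, a subunit of the CCAAT-binding factor NF-Y, was 0.48 higher in OE 67.5 (adjusted p = 0.0452, limma).

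Of 61 genes of sugar transport and sucrose or trehalose metabolism, 2 passed, HXK4 and the ICL gene above, in opposite directions, against 0.829% of all probe sets. HXK4 (LOC4342654), a hexokinase, was at 5.32, 5.04 and 5.20 in OE 67.1 and at 5.73, 5.59 and 6.00 in OE 67.5, a difference of 0.59 ± 0.13 (SE; adjusted p = 0.047, limma). AMY1.5, an alpha-amylase, was 0.46 higher (adjusted p = 0.047, limma). It was the 1 member that passed among 20 starch and seed genes, against 0.829% of all probe sets. Its call was lost in 9 of the 12 fits that left out an array, the OE 67.1 repetition 3 fit among them. The call was also lost with a variance trend. The proteases cbp3, a serine carboxypeptidase, and AP25, an aspartic protease, were 0.61 and 0.48 higher (adjusted p = 0.0277 and 0.0493, limma). NOL, a chlorophyll b reductase that acts in chlorophyll breakdown, was at 4.42, 4.09 and 4.31 in OE 67.1 and at 4.81, 4.75 and 5.24 in OE 67.5, a difference of 0.66 (adjusted p = 0.0456, limma).

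The named genes that remain were higher in OE 67.5. SIP2;1, a small basic intrinsic protein of the aquaporin family, differed by 0.61 and PPT1 by 0.82 (adjusted p = 0.0486 and 0.023, limma). LTPL1, of the lipid transfer protein-like family, and D2HGDH, a D-2-hydroxyglutarate dehydrogenase, differed by 0.45 and 0.43 (adjusted p = 0.0493 and 0.0359, limma). These last genes were named after their values were seen, since they fall outside the number taken in each direction.

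**Figure D4:**
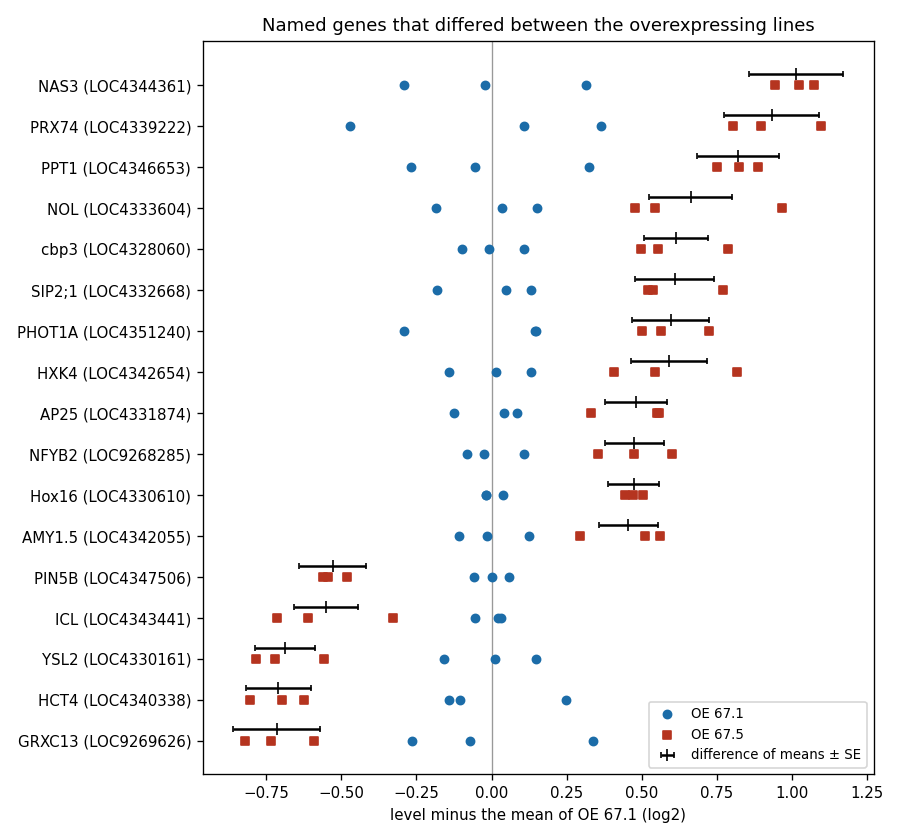
Level on each of the 6 overexpressing arrays for the 17 named genes given by the naming rule, drawn as the level minus the mean of OE 67.1 (horizontal axis, log2); circles are OE 67.1, squares OE 67.5, and the bar above them is the difference of the means ± SE. The naming rule took only genes whose arrays do not overlap between the 2 lines. The differences run from −0.72 for GRXC13 to 1.01 for NAS3.

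An earlier account of these arrays compared the overexpressing lines with their sisters, and 12 genes named there were looked up. Of these, ICL and NAS3 passed between the overexpressing lines, as given above, and the other 10 did not. LOC4331887, which has no name in the gene table, was at 9.65, 9.76 and 9.64 in OE 67.1 and at 9.46, 9.45 and 9.59 in OE 67.5, while the 6 null arrays lay between 6.09 and 6.52. The difference between the overexpressing lines was −0.18 ± 0.11 (SE; adjusted p = 0.308, limma). TIP1;2, a tonoplast aquaporin, had a difference of −0.50 ± 0.23 (SE; adjusted p = 0.183, limma), and CML1, a calmodulin-like protein, one of −0.17 ± 0.22 (SE; adjusted p = 0.622, limma). For PDX12, a pyridoxal phosphate synthase subunit, the difference was 0.31 ± 0.21 (SE; adjusted p = 0.36, limma), for TRXH, a thioredoxin, 0.19 ± 0.13 (SE; adjusted p = 0.369, limma), and for the other HXK4 (LOC4326776) 0.04 ± 0.09 (SE; adjusted p = 0.78, limma). Nrx1-1, a nucleoredoxin, had a difference of −0.02 ± 0.13 (SE; adjusted p = 0.931, limma), which turned positive without OE 67.1 repetition 2 (0.06), OE 67.1 repetition 3 (0.03) or OE 67.5 repetition 1 (0.06). A p that misses the threshold does not show that these levels were equal.

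A pair of cell wall genes came close to the threshold. EXPB15, a beta-expansin, was at 8.58, 8.57 and 8.48 in OE 67.1 and at 9.40, 10.03 and 9.46 in OE 67.5, a difference of 1.09 ± 0.25 (SE; adjusted p = 0.0559, limma). GLU15, an endoglucanase, had a difference of 0.77 ± 0.19 (SE; adjusted p = 0.0604, limma). The arrays of the lines did not overlap for either gene, which held for 30.4% of all probe sets tested. The null arrays of EXPB15, which entered the shared estimate of the spread, ranged from 7.26 to 8.57.

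The 36 gene lists, with 1294 genes in all, held a call in 10 cases, and no list had more than 2. In all, 12 of the 1294 genes passed (0.927%), near the 0.829% of all probe sets. Since so few members passed, the lists are described by their counts and medians, to be read against the median of 0.02 and the 53.9% above 0 over all probe sets, which were −0.01 and 48.0% after quantile normalization. The highest medians of lists with at least 5 members belonged to cytosolic ribosomal proteins (0.21, 19 of 20 above 0), chaperones and protein disulfide isomerases of the endoplasmic reticulum (0.17, 19 of 25) and receptor kinases and disease resistance genes (0.15, 36 of 47). Cell cycle and DNA replication genes had a median of 0.15 with 91 of 112 above 0, among them KIN12E, a kinesin gene, at 0.59, and ORC3, of the origin recognition complex, at 0.45 (adjusted p = 0.0627 and 0.0729, limma). None of the 204 members of these lists passed.

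For cell death, autophagy and senescence the median was 0.12 with 20 of 22 above 0, and NOL was the member that passed. For photosynthesis and green tissue it was 0.11 with 20 of 23 above 0, and none passed. The medians of these 6 lists stayed above 0 after quantile normalization, at 0.10, 0.06, 0.11, 0.07, 0.08 and 0.03 in the order given. Between the null lines they were 0.19, 0.12, 0.11, 0.08, 0.16 and 0.18. The 75th percentile was also higher on the OE 67.5 arrays, and its part in these medians was not tested.

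The lowest medians belonged to diterpenoid phytoalexin synthesis and to low oxygen and fermentation. Of the phytoalexin genes, 2 of 21 lay above 0 with a median of −0.23 (−0.19 after quantile normalization, −0.08 between the null lines). MAS, momilactone A synthase, had a difference of −0.37, CYP99A3, a cytochrome P450 of the same pathway, of −0.46, and CPS4, a copalyl diphosphate synthase, of −0.40 (adjusted p = 0.0668, 0.12 and 0.132, limma). MAS was at the low end of the arrays, at 3.06, 2.77 and 2.81 in OE 67.1 and at 2.53, 2.40 and 2.59 in OE 67.5. None of the 9 low oxygen genes lay above 0, with a median of −0.22 (−0.20 and −0.05). NSHB1, a non-symbiotic haemoglobin, was at 8.40, 6.93 and 8.00 in OE 67.1 and at 6.21, 7.12 and 6.29 in OE 67.5; the lines overlapped, and the difference of −1.24 ± 0.38 (SE) did not pass (adjusted p = 0.0897, limma). No member of either list passed.

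Pathogenesis-related proteins and chitinases (7 of 20 above 0, median −0.14), heat shock proteins and factors (12 of 49, −0.10), AP2/ERF factors (3 of 17, −0.10) and cytochrome P450 genes (9 of 37, −0.10) had no member that passed. Examples are Cht1, a chitinase, at −0.52 (adjusted p = 0.0602, limma), HSFA6A, a heat shock factor, at −0.36 (adjusted p = 0.0555, limma) and DREB1I, a dehydration-responsive AP2/ERF factor, at −1.02 ± 0.28 (SE; adjusted p = 0.0728, limma). DREB1I was at 6.75, 5.24 and 5.75 in OE 67.1 and at 5.09, 4.89 and 4.70 in OE 67.5, with repetition 1 of OE 67.1 the highest array. Aquaporins and mineral uptake transporters had 44 of 112 above 0 and a median of −0.07, against 0.05 between the null lines, and SIP2;1 was the member that passed.

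The 19 crown root regulators and root patterning genes had a median of −0.02 with 7 above 0, and none passed. WOX4, a homeobox gene of the meristem, was at 5.77, 5.80 and 5.89 in OE 67.1 and at 5.50, 5.29 and 5.10 in OE 67.5, a difference of −0.53 ± 0.14 (SE; adjusted p = 0.0678, limma). SCR1, of the SCARECROW family of root patterning factors, had a difference of 0.55 ± 0.15 (SE; adjusted p = 0.072, limma). The medians of the lists of cytokinin, ethylene, jasmonate, abscisic acid and gibberellin genes lay between −0.08 and 0.08, and no member of these passed; HK1, a histidine kinase gene in the cytokinin list, had a difference of 0.70 and ABA8OX3, an abscisic acid 8'-hydroxylase gene, of −0.68 (adjusted p = 0.0566 and 0.0568, limma). GH3.5, also named JAR1, the enzyme that joins jasmonate to isoleucine, had a difference of 0.33 (adjusted p = 0.0631, limma). The median changed sign under quantile normalization in 9 of the 36 lists, those of auxin, abscisic acid, histones, expansins, antioxidant enzymes, sugar metabolism, homeobox genes, bHLH factors and the circadian clock, so no direction is given for them. The lists of calcium sensors and kinases, other cell wall remodelling genes, MYB, NAC and WRKY factors had medians between −0.10 and 0.09, and no member of these passed.

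**Figure D5:**
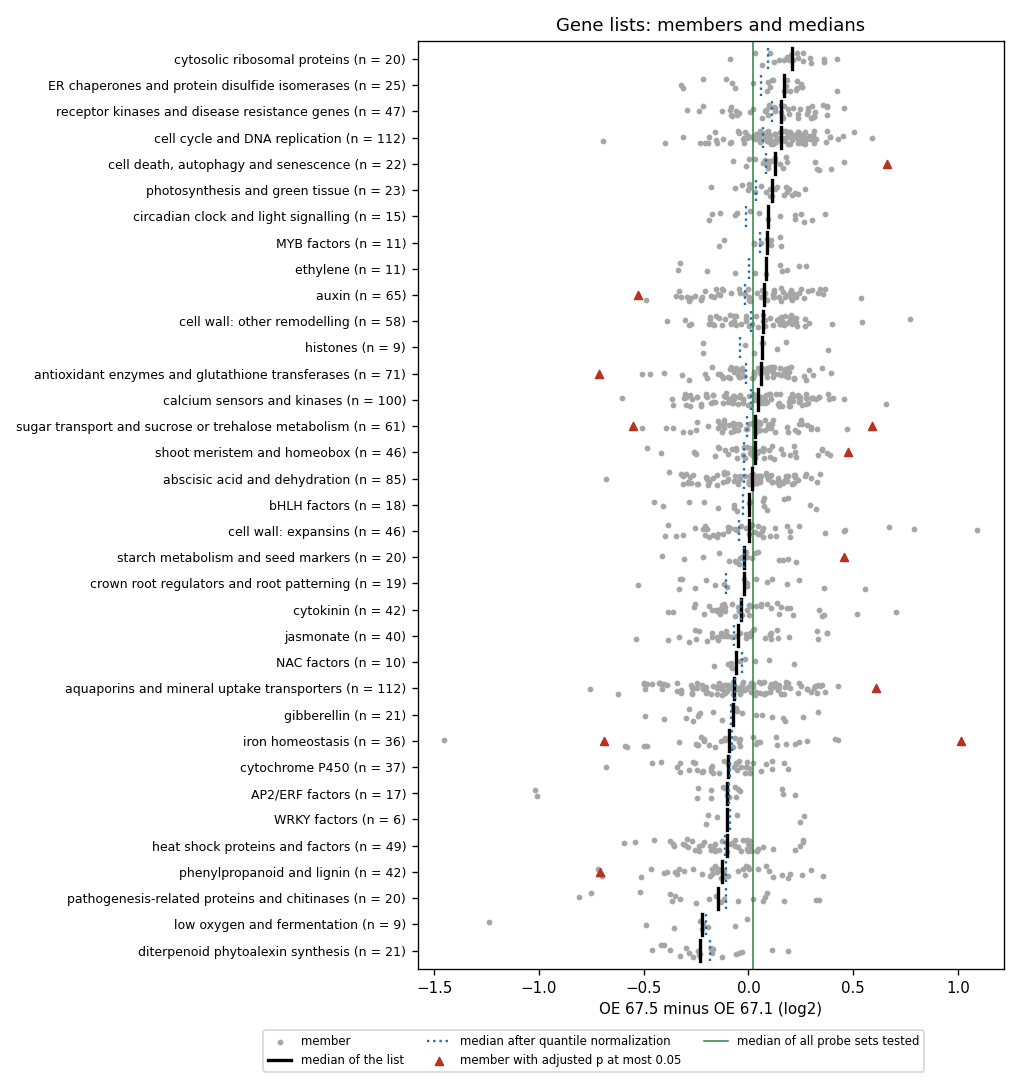
Difference between the overexpressing lines (OE 67.5 minus OE 67.1, log2) for each member of the 35 gene lists with at least 5 measured members; grey points are members, red triangles members with an adjusted p of at most 0.05, black bars list medians, dotted blue bars medians after quantile normalization, and the green line the median of all probe sets tested (0.02). List medians run from −0.23 for diterpenoid phytoalexin synthesis to 0.21 for cytosolic ribosomal proteins, and single members that passed lie at the edges of their lists.

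Genes that passed were scattered in gene order. Of 200 genes with a call and a probe set of their own, 14 (7.0%) lay within 5 gene positions of another such gene, against 5.33% of all 24160 genes that lay as near to a gene with a call. They made 7 pairs, of which 3 had the same direction. NAS3 and LOC4344362, 2 positions away, were both higher in OE 67.5, by 1.01 and 0.49, and LOC4330226 and its neighbour LOC4330227 by 0.70 and 0.63. LOC4326536 and LOC4326538 were higher by 0.77 and 0.43.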

How the data were processed

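Per the labels' protocols, total RNA was labelled as biotinylated cRNA and hybridised to 1-colour Affymetrix arrays, 1 for each of 12 samples. The deposited values are on the log2 scale after RMA, per the submitters' processing notes; no version or genome build is given in the sources used here. RMA evens out total signal between arrays and compresses differences of weak genes. Signal over background was not used here. Precision is limited by the 3 arrays of a line.

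Of 36643 probe sets, the platform annotation paired 24251 with a gene (24161 with 1, 90 with several), and these were tested; 12392 were unnamed. All 24161 single-gene probe sets matched a record of assembly ASM3414082v1, used for names and gene order, and 2744 carried an informative name. Columns were matched to lines by the labels.

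With limma 3.58.1 in R 4.3.3, the 4 line means were fitted to all 12 arrays (8 residual degrees of freedom), without the repetition number, and contrasts were tested two-sided; p-values were adjusted by Benjamini-Hochberg over these 24251, with a limit of 0.05. The median SE came to 0.109 for a pair of lines and 0.155 for the difference of differences. With 3 arrays a line, the smallest p of an exact permutation test is 0.1, so none was run. On simulated data with 24251 probe sets, the contrast of OE 67.5 and OE 67.1 recovered 55% of changes of 0.5 and 95% of changes of 1 on the log2 scale, with 7 false calls among 157. The simulated noise was independent between probe sets and arrays, with no effect shared across an array or a repetition. These rates therefore need not hold for the 201 calls.

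The rule for names took, in each direction, the 12 named and 5 unnamed genes with the largest passing difference and separated arrays, up to 5 for the difference of differences, up to 3 passing members for each list or its member with the smallest p, and 12 genes from an earlier account of these arrays. Members and lists were chosen with earlier results of these data known. List examples outside the rule (IRT2, Nramp1, NAAT1, 4CL5, CAD8D, IAA6, ORC3, CYP99A3, CPS4) and the genes in gene order were chosen after their values were seen. Alternatives were all probe sets, a mean level of at least 4, the overexpressing arrays alone, the repetition as a block, quantile normalization, a variance trend and leaving out each array.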

Additional observations from a re-analysis of the deposited data

Results flagged for a closer look

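For 8 genes the difference between OE 67.5 and OE 67.1 was not the difference between their null sister lines, by the test of the difference itself (limma). The values, as log2 differences of differences, were 2.21 for LOC9272344, 1.37 for LOC4329504, −3.57 for LOC9267697, 1.08 for LOC4349509, −1.08 for ICL, 1.39 for LOC4348634, −1.32 for LOC4343264 and 1.33 for LOC9272503. LOC9272344, LOC4329504 and LOC9267697 passed under all 17 alternatives tried.

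Probe sets without a gene in the annotation took no part in the comparisons. With every probe set tested, 34 of them passed between the overexpressing lines, 25 of them higher in OE 67.5, and 20 passed between the null lines; 9 passed in both. Control probe sets could not be told from other unnamed ones.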

How the results depend on the processing

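Of the values tried, the number of probe sets that passed moved most. Between the overexpressing lines it was 201, and it was 61 with all probe sets, 29 with the overexpressing arrays alone, 61 after quantile normalization, 258 at a mean level of at least 4 and 197 with a variance trend; 27, 27, 58, 170 and 181 of these were among the 201. Leaving out an array gave 20 to 930. Between the null lines the number was 56, 60 after quantile normalization, 42 with all probe sets, 85 at a mean level of at least 4 and 10 to 1113 without an array. For the difference of differences it was 8, 11 at a mean level of at least 4, 5 after quantile normalization and 3 to 7 without an array. With the replicate block, 2048 passed between the overexpressing lines, all 201 among them. The block gave 507 between the null lines and 10 in the difference of differences. The labels do not say whether an equal number marks a shared repetition. Same-numbered overexpressing arrays deviated together in repetitions 1 and 3 (r = 0.158 and 0.268) and not in repetition 2 (r = −0.016). Over all pairs of lines, same-numbered arrays had an r of 0.16 to 0.42 in repetition 3. In repetitions 1 and 2 the r was −0.06 to 0.29 and −0.25 to 0.24. Between repetition 1 and repetition 3 arrays of different lines every r was negative (−0.38 to −0.03). Not every array correlated best with its own number. Part of the deviations thus went with the number, which the fit behind the 201 left out. Of 85 values for single genes, 51 passed; 29 of these lost their call with all probe sets, 25 after quantile normalization, 25 with the overexpressing arrays alone, 1 with the block and 1 with a variance trend; of the 34 that did not pass, 18 passed with the block, 3 at a mean level of at least 4, 1 with the overexpressing arrays alone and 1 with a variance trend. The causes were not tested. The sign turned for Nrx1-1 alone among these 85, from −0.02 (range −0.1515 to 0.0626) to 0.0626, 0.0274 and 0.0564 without OE 67.1 repetition 2, OE 67.1 repetition 3 and OE 67.5 repetition 1. Changes of 0.5 were recovered in 55% of simulated cases, in which no effect was shared across an array or a repetition.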
